A study of Arabidopsis thaliana with 6 samples.

Results

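SC35, SCL28, SCL30, SCL30a, SCL33 and SR45a are 6 Arabidopsis genes for splicing factors of the serine/arginine-rich (SR) type. They were taken by their gene identifiers (AT5G64200, AT5G18810, AT3G55460, AT3G13570, AT1G55310 and AT1G07350) and are 6 of the 33602 genes in the deposited tables. All 6 had enough reads to be tested. RNA from whole seedlings of the ecotype Col-0 was sequenced for WT in 3 libraries (replicates 2, 4 and 5) and for the double mutant acinus-2 pinin-1, labelled acinus-2 pnn, in another 3 (replicates 6, 7 and 12). The labels give both genotypes an age of 12 days under continuous light at 22 °C, while the methods of the study give an older age. Each mutant allele is a single T-DNA line, and the single mutants were not sequenced, so that the contributions of the 2 alleles cannot be told apart. No label says whether libraries came from separate cultures, so that p-values measure the spread between these libraries.

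SR proteins bind pre-mRNA through an RNA recognition motif and use a domain rich in arginine and serine to recruit the U1 snRNP to the donor and U2AF to the acceptor of an intron. SC35 is the plant counterpart of the human factor of that name, and the SC35-like (SCL) proteins are a plant-specific branch with a charged extension before the RNA recognition motif. SR45a is an SR-like protein that is induced by heat and high light, and it is distinct from SR45, the partner of AtACINUS and AtPININ in the ASAP and PSAP complexes. SR genes are known for splicing of their own RNA into forms with an early stop codon, often through an exon that is included or skipped as a unit (a cassette exon). The comparison of WT with the double mutant asks how the RNA of these genes is changed when both AtACINUS and AtPININ are disrupted.

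The 4 genes with a cassette exon in these data are SCL30a, SCL33, SCL30 and SR45a. The cassettes of 3 of them are shown here because the splicing results below turn on them. Coordinates are those of the TAIR10.1 reference, sequence and annotation are from RefSeq, and the first stop codon in the reading frame of the exons before is in capitals. The SCL30a cassette has 161 bases, lies between exons 3 and 4 at chr3:4430483-4430643 on the minus strand, and is not an exon of the tables. The SCL33 cassette has 162 bases and lies between exons 3 and 5 at chr1:20631561-20631722 on the plus strand. In the tables its last 36 bases are exon 4 and the rest is counted as intron 3. The SR45a cassette is exon 5 of 8, with 96 bases at chr1:2258750-2258845 on the minus strand.
SCL30a cassette: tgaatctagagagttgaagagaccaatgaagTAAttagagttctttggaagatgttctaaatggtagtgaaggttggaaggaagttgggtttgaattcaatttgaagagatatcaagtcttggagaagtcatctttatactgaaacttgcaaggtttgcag
SCL33 cassette: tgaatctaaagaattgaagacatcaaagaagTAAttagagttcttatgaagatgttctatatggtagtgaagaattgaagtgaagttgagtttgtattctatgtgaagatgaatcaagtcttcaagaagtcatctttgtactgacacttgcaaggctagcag
SR45a cassette: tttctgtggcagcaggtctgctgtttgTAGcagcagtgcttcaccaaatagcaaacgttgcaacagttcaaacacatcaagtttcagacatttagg

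The cassettes of SCL30a and SCL33 were alike over their whole length. They shared 139 of 163 aligned bases, or 85.3%, close to the 87.2% shared by the coding exons before them and the 85.4% shared by the exons after them. Their stop codon TAA starts at the same position, 32 bases into the exon, and with the cassette the reading frame ends after 85 codons in SCL30a, in place of 262, and after 84 codons in SCL33, in place of 287. The longest run of identical bases was 18 between these 2 cassettes and 23 between the joined annotated exons of the 2 genes, and the deposited tables list 0% of the reads of both genes as counting for several places. The SCL30 cassette is longer, with 449 bases at chr3:20561852-20562300 on the plus strand between exons 3 and 4, and shared 31.8% of aligned bases with that of SCL30a and 33.2% with that of SCL33. Its first in-frame stop is TGA at position 59, so that the frame ends after 104 codons in place of 262. In SR45a the stop is TAG at position 28 of the cassette, and the frame ends after 159 codons in place of 382.

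The splice sites at the ends of these cassettes are shown because the donors of SCL30a and SCL33 do not begin with GT. The first 2 bases of the intron are in capitals, after the last 3 bases of the exon.
SCL30a cassette donor: cagGCaagtgct
SCL33 cassette donor: cagGCaagtgct
SCL30 cassette donor: agcGTaagtaga
SCL30a exon 3 donor: tggGTgaggatg
SCL33 exon 3 donor: cggGTgagcatg
The first 2 lines are identical and begin with GC. Donors that begin with GC make up 1.11% of the 136162 introns of the reference, and those that begin with GT 98.5%. The remaining donors listed, and that of the SR45a cassette, begin with GT.

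The libraries held between 23104163 and 33595940 mapped reads, of which 18890178 to 27622690 lay on genes. The 3 exons of AtACINUS that lie after the T-DNA (exons 4 to 6) held 853, 1300 and 1255 reads in WT and 0, 1 and 1 in the mutant. Exons 1 and 2 of AtACINUS held 334, 383 and 384 reads in WT and 314, 282 and 317 in the mutant. The paper found N-terminal peptides of AtACINUS in this mutant at a reduced level, and detected none from the region after the T-DNA. Exons 1 to 8 of AtPININ, before its T-DNA, held 704, 938 and 964 reads in WT and 380, 344 and 435 in the mutant, while exons 9 to 11, which hold the T-DNA in exon 9, held 729, 897 and 905 reads in WT and 1826, 2221 and 2340 in the mutant. All libraries thus fit their labels. Of the markers of leaves, 3 of 4 were lower in the mutant, and their summed level ranged from 9810 to 9860 CPM (reads per 1e6 reads on genes, TMM-normalized) in WT and from 8000 to 8370 CPM in the mutant. Of the root markers, 4 of 5 were lower, with sums between 86.3 and 112 CPM in WT and between 68.5 and 74.3 CPM in the mutant. Of all tested genes, 19.4% were lower and 18.0% higher at the threshold used, an adjusted p under 0.02. STM, which marks the shoot meristem, was higher, at 2.18 ± 0.134 RPKM (SD, n = 3) in WT and 5.24 ± 0.619 in the mutant, while CLV3, the other marker of this tissue, and the flower markers AP1 and AG fell under the filter on low counts. The third flower marker, SEP3, did not pass. The part of these tissue differences in the results below was not tested, and in whole seedlings fewer cells of a type and less RNA per cell cannot be told apart.

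At the level of whole genes, SCL30a, SR45a and SC35 had less RNA in acinus-2 pinin-1, while SCL30, SCL33 and SCL28 did not pass the test. Levels are given as RPKM (reads per kilobase of exon and per 1e6 mapped reads, as deposited), which can be compared between genes. Tests are edgeR's quasi-likelihood test on expected counts, with Benjamini-Hochberg adjustment over 20962 genes. At an adjusted p under 0.02 without a limit on the fold, 3 of the 6 genes were lower and 0 higher, where 19.4% of all tested genes were lower and 18.0% higher. None of the 6 met the full rule of an adjusted p under 0.02 with a change above 2-fold, which 4.88% of all genes met as lower and 4.29% as higher. DESeq2 gave the same counts, and 3 of the 6 had an unadjusted p under 0.05, where 53.0% of all tested genes did.

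SCL30a, an SCL protein that acts in seed germination and overlaps in function with its relatives, changed most. Its level was 19.56, 21.63 and 18.99 RPKM in WT and 13.76, 13.52 and 13.66 RPKM in the mutant. The 3 mutant libraries were all below the 3 WT libraries, as on 25.8% of tested genes by RPKM. The RNA stood at 67.8% of WT, with a log2 fold change of -0.56 (SE 0.06, adjusted p = 1.8e-05 by edgeR), and when single libraries were left out the change ranged from -0.58 to -0.53.

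SR45a, the heat- and light-induced member, had 13.22, 13.24 and 13.02 RPKM in WT and 10.23, 9.72 and 11.14 RPKM in the mutant. The genotypes did not overlap, with all mutant libraries lower as on 25.8% of tested genes. SR45a stood at 78.4% of WT, with a log2 fold change of -0.35 (SE 0.07, adjusted p = 0.00085 by edgeR).

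SC35 had 16.79, 17.58 and 15.45 RPKM in WT and 14.34, 13.02 and 14.05 RPKM in the mutant, again with no overlap. All mutant libraries were likewise lower on 25.8% of tested genes. SC35 stood at 82.9% of WT, with a log2 fold change of -0.27 (SE 0.06, adjusted p = 0.0042 by edgeR). Without mutant replicate 7 the log2 fold change was -0.25 and the adjusted p 0.02 by edgeR, just above the threshold. Without mutant replicate 12 these were -0.26 and 0.019, just below it. With each library left out the log2 fold change ranged from -0.31 to -0.25. The call of SC35 is thus near the threshold when a mutant library is missing, while its size hardly moved.

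SCL30 and SCL33 had similar levels in both genotypes. SCL30, whose protein is a close relative of SCL30a, had 25.74, 26.48 and 22.71 RPKM in WT and 25.02, 23.71 and 23.68 RPKM in the mutant. The log2 fold change of SCL30 was -0.05, with a 95% interval from -0.18 to 0.08 and an adjusted p of 0.56 by edgeR. SCL33 had 15.18, 17.66 and 15.33 RPKM in WT and 15.28, 14.09 and 16.55 RPKM in the mutant, a log2 fold change of -0.08 with an interval from -0.21 to 0.06. The adjusted p was 0.40 by edgeR. For both genes the interval leaves out a fall as large as that of SCL30a.

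SCL28, known in Arabidopsis as a gene of dividing cells that acts at the entry into mitosis, was measured with few reads. It had 19, 28 and 22 reads in WT and 37, 19 and 35 reads in the mutant, or 0.76, 0.85 and 0.60 RPKM against 1.26, 0.69 and 1.05 RPKM. The genotypes overlapped, with mutant replicate 7 within the WT range. The log2 fold change of 0.45 had a 95% interval from -0.09 to 0.99 and an adjusted p of 0.20 by edgeR, and a difference was not detectable at this depth. Without mutant replicate 6 it was 0.24 and without mutant replicate 7 it was 0.63, the ends of the range when single libraries were left out.

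**Figure D1:**
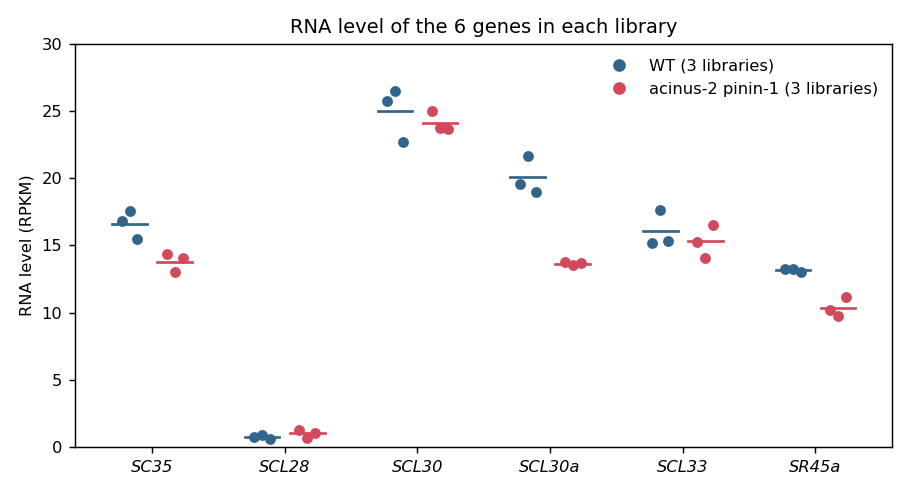
RNA level in RPKM (vertical axis) of the 6 genes in each of 3 WT (blue) and 3 acinus-2 pinin-1 (red) libraries, with horizontal lines at the mean of each genotype. SC35, SCL30a and SR45a show no overlap between genotypes, and SCL30a moves from between 18.99 and 21.63 RPKM to between 13.52 and 13.76 RPKM.

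In WT the order of levels was SCL30 (24.97 ± 2.0 RPKM, SD, n = 3), SCL30a (20.06 ± 1.39), SC35 (16.61 ± 1.08), SCL33 (16.05 ± 1.39), SR45a (13.16 ± 0.12) and SCL28 (0.74 ± 0.12). Only SC35 and SCL33 overlapped as neighbours in this order. In the mutant SCL30 stayed first with 24.14 ± 0.76 RPKM and was followed by SCL33 (15.31 ± 1.23), SC35 (13.80 ± 0.69), SCL30a (13.65 ± 0.12), SR45a (10.37 ± 0.72) and SCL28 (1.0 ± 0.29). SCL30a thus moved from the second to the fourth place, where it overlapped with SC35, and SC35 overlapped with SCL33. The 5 genes other than SCL28 stood between the percentiles 73.8 and 86.6 of tested genes by their WT level, and SCL28 at the percentile 8.28.

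The other 13 SR genes gave a similar count. Of these, 6 were lower in the mutant, 0 were higher and 7 did not pass, with a median log2 fold change of -0.26. The median of the 6 genes was -0.17 and that of all tested genes 0.00. SR34b, a relative of the human factor SRSF1, was the one with a change above 1.5-fold among those that passed, with 6.25 ± 0.816 RPKM (SD, n = 3) in WT and 4.03 ± 0.247 in the mutant, a log2 fold change of -0.63 (SE 0.10, adjusted p = 0.00035 by edgeR). The other 5 that passed were SR30, SR34, RS2Z33, RS31 and RS40, with log2 fold changes between -0.36 and -0.26. Over all 19 SR genes, 9 were lower and 0 higher, where 19.4% of all tested genes were lower and 18.0% higher.

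**Figure D2:**
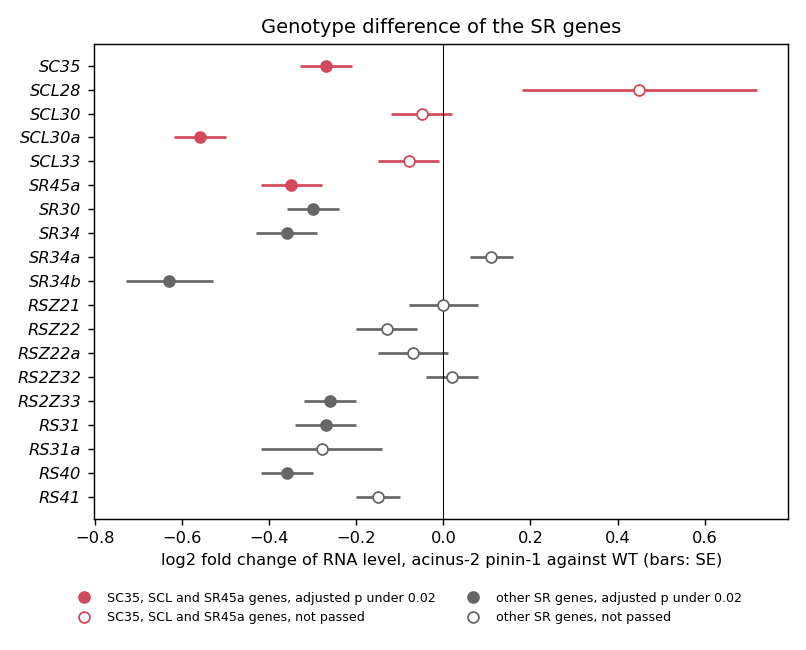
Log2 fold change of the RNA level in acinus-2 pinin-1 against WT (horizontal axis, bars are the SE from edgeR) for the 6 genes (red) and the 13 other SR genes (grey). Filled points passed an adjusted p of 0.02, and all 9 filled points lie left of 0, from -0.63 for SR34b to -0.26 for RS2Z33.

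Proteins that bind or phosphorylate SR proteins gave 2 genes that were lower, 1 that was higher and 8 that did not pass, of 11, where 19.4% of all tested genes were lower and 18.0% higher. The median log2 fold change of the list was -0.05. None of the 3 that passed exceeded 1.5-fold, and they are named here after their values were seen. AFC3, a LAMMER-type kinase of the family that phosphorylates SR proteins, had a log2 fold change of -0.52, and U1-70K, the U1 snRNP protein that SR proteins contact at the donor, one of -0.36. U2AF65a, which binds the polypyrimidine tract before the acceptor, had one of 0.21.

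Lists tied to the regulation of SCL28 and SR45a were examined as well. Of 14 genes of mitosis, 1 was higher, 0 were lower and 13 did not pass. This one was CYCB1;1, a mitotic cyclin, with a log2 fold change of 0.65 (SE 0.12, adjusted p = 0.00063 by edgeR), and the median of the list was 0.10. Of 13 genes of the heat and high light response, 8 had enough reads, of which 3 were lower, 0 higher and 5 did not pass. The 3 were the chaperone HSP70 with a log2 fold change of -1.08, the coactivator MBF1C with -0.65 and the disaggregase HSP101 with -0.61. The median of the 8 tested genes was -0.31. Of all tested genes, 19.4% were lower and 18.0% higher at the same threshold. HSFA2, a heat stress transcription factor, stood at 0.272 ± 0.0632 RPKM (SD, n = 3) in WT and 0.317 ± 0.11 in the mutant and did not pass.

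The genes most like the 3 lower members in their pattern over the 6 libraries were found by Pearson correlation of log2 CPM among 17601 other genes with a mean of at least 50 reads. These values describe 2 groups of 3 libraries and are given without a test. For SCL30a they were ABCD2 and LHCB5, a light-harvesting protein, both with r = 0.999. For SC35 they were NPQ4, which acts in the dissipation of excess light, and the SR gene SR30, both with r = 0.997. For SR45a they were AT2G41190 and AT3G28040, both with r = 0.999.

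Within the genes, reads were next set on exons and introns. Exons and introns are numbered from the 5′ end of each gene. Of 44 exons of the 6 genes, none differed in its share of the reads of the gene at an adjusted p under 0.05 and a change above 1.5-fold, a rule that 0.0671% of all tested exons met. By unadjusted p, 1 of 44 exons lay under 0.05, where 5.17% of all exons did, and DESeq2 also called none. The exon with most reads of each gene had a log2 change of its share between -0.13 for SCL30 exon 8 and 0.27 for SCL30a exon 6. The exon under 0.05 was this last exon of SCL30a, with 830 reads in WT and 602 in the mutant and an SE of 0.11 on its log2 change (adjusted p = 0.89 by edgeR, unadjusted 0.016).

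Reads on introns concentrated in few places. Of 38 introns, 17 had enough reads to be tested, and none met the rule for changed retention (adjusted p under 0.05, change above 2-fold, intron RPKM above 1 and intron percentage above 5), which 0.862% of all tested introns met as increased and 0.0548% as decreased. None had an unadjusted p under 0.05, where 11.1% of all tested introns did, and DESeq2 called none either. In SCL30a, intron 3 held 84, 109 and 93 reads in WT and 78, 87 and 85 reads in the mutant, although the gene itself had fewer reads there. Per 100 reads of the exons on both sides these were 41.3 in WT and 56.5 in the mutant as means, without overlap, with a log2 change of 0.45 (SE 0.23, adjusted p = 0.46 by edgeR). In all, 2 of the 17 introns had a ratio higher in the mutant without overlap and 1 had a lower one, where 8.89% and 8.01% of all tested introns did. Intron 3 of SCL30a contains the cassette exon, whose reads are among those counted.

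In SCL33, SCL30 and SR45a, the introns with most reads were likewise those beside or around the cassette. SCL33 intron 3 held 90, 139 and 112 reads in WT and 121, 99 and 133 in the mutant, with a log2 change of 0.26 (SE 0.26, adjusted p = 0.78 by edgeR). SCL33 intron 4, after the cassette, held 35, 50 and 40 reads in WT and 24, 28 and 33 in the mutant, with a log2 change of -0.32 (SE 0.29, adjusted p = 0.76 by edgeR). SCL30 intron 3, the longest of these introns with 1100 bases, held 56, 63 and 65 reads in WT and 50, 63 and 73 in the mutant, with a log2 change of 0.11 (SE 0.24). The ratios of these 3 introns overlapped between genotypes. SR45a intron 5, after the cassette, held 17, 26 and 19 reads in WT and 16, 16 and 23 in the mutant, with a log2 change of 0.21 (SE 0.36). Intron 4 of SR45a, before the cassette, held 12, 24 and 16 reads in WT and 8, 8 and 9 in the mutant, a log2 change of -0.80 (SE 0.42, adjusted p = 0.48 by edgeR). It is the intron with a lower ratio and no overlap, at 13.7 to 18.5 reads per 100 in WT and 8.91 to 9.76 in the mutant. The second intron with a higher ratio and no overlap was intron 1 of SC35, on 4 reads in WT and 10 in the mutant, with a log2 change of 1.72 (SE 0.86, adjusted p = 0.45 by edgeR). Both introns were named after their values were seen. No intron of SC35 or SCL28 held a mean of 10 reads in either genotype.

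**Figure D3:**
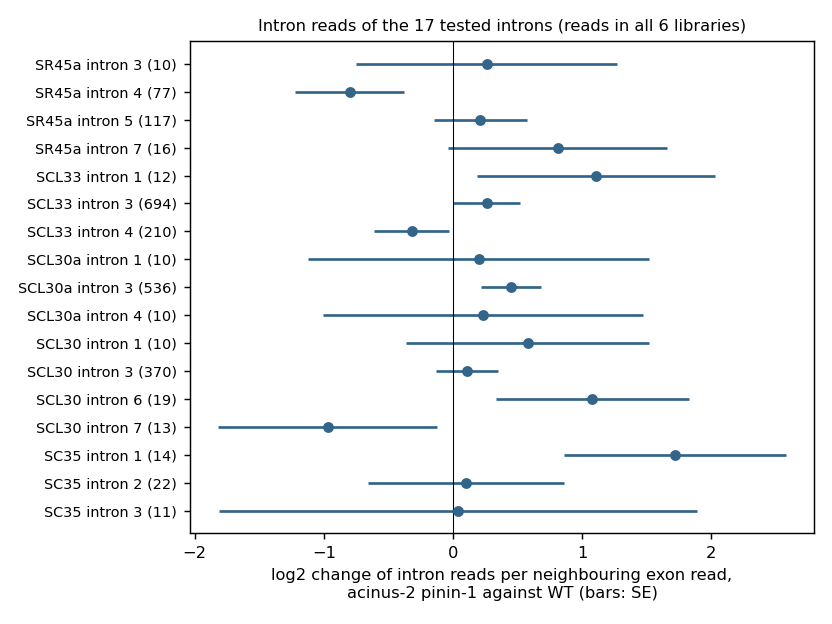
Log2 change in acinus-2 pinin-1 against WT of the reads on each tested intron per read of its neighbouring exons (horizontal axis, bars are the SE from edgeR), for 17 introns named with their reads in all 6 libraries. The introns with over 300 reads (SCL30a, SCL33 and SCL30 intron 3) lie between 0.11 and 0.45, and those with few reads have wide bars.

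Summed over the 6 genes, reads on introns made up 7.12%, 7.16% and 6.53% of exon and intron reads in WT and 7.32%, 8.17% and 7.69% in the mutant. The genotypes did not overlap, and the exact permutation test (2-sided) gave p = 0.1, the smallest value that 3 against 3 libraries allow. The same share over all genes was 0.975% ± 0.00751 (SD, n = 3) in WT and 1.07% ± 0.0271 in the mutant. It did not overlap between genotypes either (exact permutation p = 0.1). For the 6 genes, intron reads include those on the parts of the SCL30a, SCL33 and SCL30 cassettes that are counted as intron. Among the 6 genes, SCL30a alone had shares without overlap, where 8.87% of 13911 genes with 10 or more intron reads had a higher share without overlap. Its shares were 9.67%, 9.19% and 8.25% in WT and 11.2%, 12.7% and 11.1% in the mutant (exact permutation p = 0.1). The share of SCL33 was the highest in both genotypes, at 17% ± 1.48 and 17.7% ± 0.945 (SD, n = 3).

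The cassette exons themselves were measured from spliced reads. This comparison was added after the data had been seen. Reads on either junction of the cassette (inclusion reads) were set against reads that join the exons before and after it (skipping reads), so that a cassette present in all RNA would be counted at both its ends. Reads at neighbouring donors or acceptors of the cassette were included, and these made up 13 of 83 inclusion reads in SCL30, 8 of 217 in SR45a, 6 of 101 in SCL33 and 0 of 103 in SCL30a. The 95% intervals on shares are Wilson intervals and cover counting error only. Among 383 cassette events of all genes, 1 passed an adjusted p of 0.05 by edgeR (0.261%), and this was none of the 4 members. DESeq2 called none of the 4 either, and 1 of the 4 had an unadjusted p under 0.05, where 8.88% of all events did. Over all 383 events, the log2 change of inclusion against skipping had a median of 0.22 and quartiles of -0.48 and 0.95.

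In SCL30a, inclusion reads numbered 11, 19 and 17 in WT and 18, 20 and 18 in the mutant. Skipping reads numbered 45, 54 and 52 in WT and 22, 35 and 23 in the mutant. The inclusion share was 19.6% (11.3 to 31.8), 26.0% (17.3 to 37.1) and 24.6% (16 to 36) in WT and 45% (30.7 to 60.2), 36.4% (24.9 to 49.6) and 43.9% (29.9 to 59) in the mutant. The 3 mutant libraries were thus all above the 3 WT libraries, as on 9.14% of the 383 events. The means were 23.4% ± 3.36 and 41.8% ± 4.70 (SD, n = 3), with an exact permutation p of 0.1, the smallest possible. In edgeR the log2 change of inclusion against skipping was 1.20 (SE 0.45), with an unadjusted p of 0.024 and an adjusted p of 0.50, so that it did not pass. It ranked 18 of 383 by p, and its value lay between 1.06 and 1.37 with each library left out. By the junction before the cassette alone, the share rested on 20 reads in WT and 19 in the mutant and overlapped between genotypes, with means of 11.1% and 19.7%, and by the junction after it alone, the means were 15.2% and 32.0% without overlap.

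Per 1e6 mapped reads, the skipping reads of SCL30a, which leave the full reading frame open, were 1.95, 1.78 and 1.55 in WT and 0.815, 1.38 and 0.752 in the mutant. They stood at 55.7% of WT and did not overlap (exact permutation p = 0.1), with all mutant libraries lower as on 13.1% of the 383 events. Inclusion reads were 0.476, 0.626 and 0.506 in WT and 0.666, 0.786 and 0.588 in the mutant and overlapped (exact permutation p = 0.2). The gene as a whole stood at 67.8% of WT.

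SCL33 had inclusion reads of 12, 17 and 12 in WT and 22, 20 and 18 in the mutant, and skipping reads of 18, 22 and 22 against 12, 13 and 19. Its inclusion share was 40% (24.6 to 57.7), 43.6% (29.3 to 59.0) and 35.3% (21.5 to 52.1) in WT and 64.7% (47.9 to 78.5), 60.6% (43.7 to 75.3) and 48.6% (33.4 to 64.1) in the mutant. The mutant libraries were all above the WT libraries, as on 9.14% of the 383 events. Mutant replicate 12, however, lay closer to WT than to the other mutant libraries. The means were 39.6% ± 4.16 and 58.0% ± 8.34 (SD, n = 3, exact permutation p = 0.1). By the junction before the cassette alone, the share rested on 7 reads in WT and 13 in the mutant and overlapped. Its means were 10.1% and 22.8%. By library, these reads numbered 4, 3 and 0 in WT and 6, 7 and 0 in the mutant. In WT replicate 5 and mutant replicate 12, all inclusion reads thus came from the junction after the cassette. By that junction alone, on 34 reads in WT and 47 in the mutant, the means were 35% and 51.9% without overlap. The log2 change was 1.06 (SE 0.56), with an unadjusted p of 0.089 and an adjusted p of 0.60 by edgeR. Inclusion reads per 1e6 mapped reads were 0.479 ± 0.107 in WT and 0.730 ± 0.123 in the mutant (SD, n = 3). Skipping reads were 0.720 ± 0.0623 and 0.525 ± 0.0893, and neither value overlapped between genotypes. Without overlap, 15.4% of all events had higher inclusion reads and 13.1% had lower skipping reads. The RNA level of the whole gene did not pass the test.

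SCL30 and SR45a gave other values. The inclusion share of SCL30 was 19.0%, 12.3% and 13.8% in WT and 12.8%, 16.1% and 11.4% in the mutant, with overlap, and a log2 change of -0.18 with a 95% interval from -0.98 to 0.63. In SR45a, inclusion reads outnumbered skipping reads, with shares of 82.4%, 82.0% and 88.7% in WT and 91.4%, 88.2% and 83.0% in the mutant. These shares count both ends of the cassette and are not fractions of the RNA. By the junction before the cassette alone, the means were 71.4% in WT and 78.6% in the mutant. By the junction after it alone, they were 74.2% and 77.3%, and both overlapped between genotypes. The log2 change of SR45a was 0.32 with a 95% interval from -0.86 to 1.5. The value of SCL30a lies within the interval of SR45a and outside that of SCL30. The interval of SCL30a itself, from 0.32 to 2.08, overlaps with both. The log2 change of SR45a ranged from 0.09 without mutant replicate 6 to 0.67 without mutant replicate 12. Whether the genes differ in their change was not tested.

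**Figure D4:**
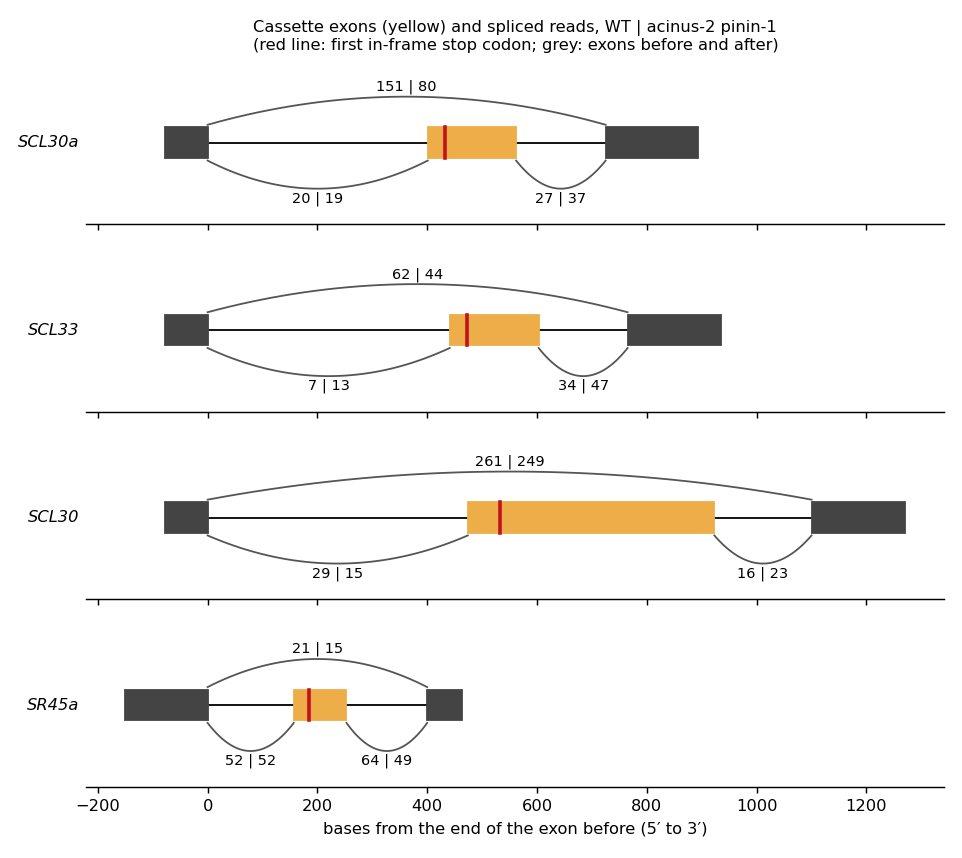
Map of the cassette exons (yellow) of SCL30a, SCL33, SCL30 and SR45a between the exons before and after them (grey), to scale in bases from the end of the exon before, with the first in-frame stop codon in red. Numbers on the arcs are spliced reads summed over the 3 WT and the 3 acinus-2 pinin-1 libraries, and in SCL30a those that skip the cassette number 151 and 80.

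**Figure D5:**
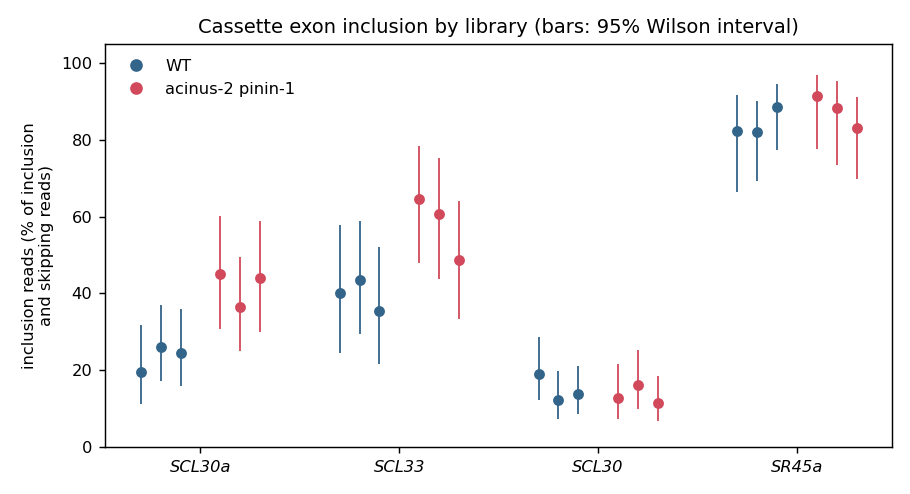
Inclusion reads as a percentage of inclusion and skipping reads (vertical axis) in each WT (blue) and acinus-2 pinin-1 (red) library, with bars for the 95% Wilson interval. The mutant libraries of SCL30a (36.4% to 45%) and SCL33 (48.6% to 64.7%) lie above the WT libraries (19.6% to 26.0% and 35.3% to 43.6%), while those of SCL30 and SR45a overlap with WT.

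Skipping of annotated exons was also tested from the table of exon pairs, in which fewer reads are counted for a junction than in the table of exact splice sites. Of 828 events, 0.121% met the rule of an adjusted p under 0.05, a change above 2-fold and a rate above 5%, and neither of the 2 events of these genes did, by edgeR or by DESeq2. No unadjusted p of the 2 lay under 0.05, where 5.8% of all events did. Both are cassette events from above, so that they are not a separate result. SCL33 had 11, 13 and 18 reads from exon 3 to exon 5 in WT and 7, 10 and 15 in the mutant. Reads that join exon 4 to either of these exons numbered 3, 11 and 11 in WT and 12, 11 and 18 in the mutant. The log2 change of skipping against these was -1.17 (SE 0.82). SR45a had 4, 7 and 4 reads that skip exon 5 in WT and 3, 3 and 6 in the mutant. Reads that join exon 5 to its neighbours numbered 22, 30 and 34 in WT and 26, 27 and 29 in the mutant. The log2 change was -0.26 (SE 0.84).

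Alternative donors and acceptors were compared by Fisher's exact test in each of the 9 pairs of a WT and a mutant library. None of the 9 site variants of these genes with enough reads met the rule of p under 0.05 in all 9 pairs, a change above 2-fold and a use above 5%, which 0.133% of 7504 variants met. With edgeR, 0 of the 9 passed an adjusted p of 0.05 and 2 had an unadjusted p under 0.05, where 0 and 5.2% of all variants did. These 2 belong to SCL30a, the direct joining of exons 3 and 4 and the joining of the cassette to exon 4. They passed in 3 and 2 of the 9 pairs. Both are shares of the same exon pair, so that a rise of the latter lowers the former. Their reads are also those of the cassette comparison above, so that they are not a separate result. In SCL30, the variant with most reads, the direct joining of exons 3 and 4, had 68, 93 and 100 reads in WT and 75, 73 and 101 in the mutant and passed in none of the pairs, with a log2 change of 0.18 (SE 0.42). The joining of exon 3 to the cassette, named after its values were seen, had 8, 8 and 11 reads in WT and 2, 5 and 7 in the mutant and passed in 1 pair. Its share of the spliced reads of this exon pair was 9.52%, 7.55% and 9.48% in WT and 2.33%, 5.75% and 6.14% in the mutant, without overlap (exact permutation p = 0.1), and 6.24% of all variants had a lower share without overlap.

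A pair of acceptors lies 3 bases apart at the start of exon 6 of SCL33, as shown here with both AG in capitals at chr1:20632133-20632153 on the plus strand.
SCL33 exon 6 acceptors: ggttcgttggagcAGcAGatt
Use of the acceptor further into the exon gave 35, 81 and 54 reads in WT and 50, 41 and 51 in the mutant, and the other acceptor 32, 25 and 39 against 21, 18 and 30. The share of the former was 62.2% ± 12.6 in WT and 67.6% ± 4.06 in the mutant (SD, n = 3) and overlapped (exact permutation p = 0.6). WT replicate 4 was the highest with 76.4%.

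SC35 has an intron within its last exon, at chr5:25681543-25681732 on the minus strand, which lies after the stop codon in both transcripts of the reference. Spliced reads over it numbered 17, 10 and 7 in WT and 9, 3 and 8 in the mutant. Per 100 reads on that exon these were 21.5, 8.55 and 6.80 in WT and 11.9, 3.5 and 8.0 in the mutant, with overlap (exact permutation p = 0.6). WT replicate 2 lay far above the other WT libraries.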

How the data were processed

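Reads from 6 seedling libraries were mapped by the authors to TAIR10, and RACKJ with default settings gave the deposited tables. Its version, the gene model and the read alignment given to it are not given in the sources used here. Expected counts were deposited per gene, exon and intron. Reads assigned to more than 1 gene or place are split in them, and another deposited column holds the fraction of such reads. Junctions were deposited as counts of spliced reads, and the deposited RPKM divides by exon length and all mapped reads. The tables number exons and introns by chromosome position, so that numbers of minus-strand genes were reversed here.

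Expected counts were rounded and genes tested with edgeR 4.0.16 in R 4.3.3 (filterByExpr, TMM, quasi-likelihood test). Introns (against the 2 neighbouring exons), exons (against the other exons of the gene), skipping events and cassettes (all sites that leave an exon of at least 15 bases) were tested in the same package with 1 term per library, needing 10 reads in all. CPM uses TMM-normalized library sizes. For donors and acceptors, Fisher's exact test was used as in the methods of the study. DESeq2 1.42.0 was an alternative. Python 3.11.15 was used for exact permutation tests, intervals and Fisher's tests (scipy 1.17.1) and for figures (matplotlib 3.10.9). The edgeR and DESeq2 fits and Fisher's tests across features were tested on simulated data. No 2 libraries of a genotype held the same reads, as their counts gave a chi-square of 3.63 to 10.4 per degree of freedom.

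The 6 genes and the gene lists were chosen with earlier results of these data known. From the lists, genes past an adjusted p of 0.02 with a change above 1.5-fold are named, at most 3 in each direction, and other names were added after their values were seen. No intron, exon, event or site passed, and for the genes with enough reads the one with most reads is described, with others chosen after their values were seen. Alternatives covered normalization, filters, thresholds, references of the ratios and leaving out each library. Protein sequences were not used here.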

Additional observations from a re-analysis of the deposited data

How the results depend on the processing

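No paired analysis was possible because the 2 genotypes share no replicate number. Of 112 alternative values of the main counts and of the summed intron share, 58 are counts of 0 that stayed 0, which say nothing about stability. Of the other 54, 53 stayed within 1.5 times, or for the share within 1 SD. The exception was the count of mitotic genes that passed, which was 1 and lay between 1 and 2 with each library left out. Of 243 alternative values for single genes, introns and events, 233 kept their direction and side of the threshold, or for shares stayed within 1 SD. SC35 no longer passed without mutant replicate 7. Values near 0 changed sign in 6 cases, none of which passed the test in either setting. These were SCL30 by spliced reads alone (0.03), SCL30 intron 3 against spliced reads (-0.01), SC35 intron 2 without WT replicate 4 (-0.11) or mutant replicate 12 (-0.14), skipping of SR45a exon 5 without WT replicate 4 (0.00) and inclusion of the SCL30 cassette without WT replicate 2 (0.04). With each library left out, SC35 intron 2, skipping of SR45a exon 5 and inclusion of the SCL30 cassette ranged from -0.14 to 0.41, from -0.60 to 0.00 and from -0.34 to 0.04. In percentage points, the genotype difference of cassette inclusion was 18.3 for SCL30a, and 8.60 by the junction before the cassette alone. For SCL30 it was -1.6, against -4.65 by the junction before and 2.73 by the junction after. With reads at only the most used site on each side of the cassette it was 18.3 for SCL30a, 17.9 for SCL33, 3.77 for SR45a and -2.59 for SCL30. The alternatives for cassettes were chosen after seeing the data. Depth limits all 4 cassettes and SCL28 as a whole. Over the WT libraries, skipping reads number 62 for SCL33 and 21 for SR45a. Inclusion reads number 47 for SCL30a, 45 for SCL30 and 41 for SCL33.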
